A study of Homo sapiens with 18 samples.

Results

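The 1242 genes described here are those that the authors had called different between UMRC2 cells carrying the FTO hairpin shFTO#5 and cells carrying the control hairpin shControl, and they are all of the 1242 genes in the deposited table. UMRC2 is an established clear cell renal carcinoma (ccRCC) line that lacks functional VHL, a defect shared by both groups. A short hairpin RNA is cut by the cell into a small RNA that lowers messenger RNAs matching its sequence. Each group had 2 RNA-seq libraries of total RNA from cells in serum-supplemented medium, and the 4 libraries came from a series of 18 samples with 6 RNA-seq and 12 m6A libraries. The shFTO#2 libraries and the m6A libraries are not used here. Hairpins are named by the sample titles. The series' design text numbers them differently, as shFTO#1 and shFTO#2, so which hairpin sequence shFTO#5 denotes is not settled by the labels. Values were FPKM, which divides a gene's reads by its length and by the depth of the library, and changes are shFTO#5 minus shControl on the log2(FPKM + 1) scale with the standard error of a limma fit (n = 2 libraries per group). The labels do not tell whether the 2 libraries of a group are separate cultures. Errors and p-values therefore measure only the spread between libraries, which may be technical, and the results hold for 1 hairpin in 1 cell line.

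FTO removes the methyl group of N6-methyladenosine (m6A), a common internal mark of messenger RNA that is written by the METTL3 complex and bound by reader proteins of the YTH family. Readers can shorten the life of a marked transcript or alter its splicing and translation. In VHL-deficient ccRCC, hypoxia-inducible factors stay active without low oxygen and raise genes of glycolysis, blood vessel growth and lipid storage.

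The FPKM values imply library totals of 14548533 to 18184675 reads. These are the reads that FPKM was scaled by and need not be all reads sequenced. The listed genes held 32.1% to 34.0% of them, and the least covered gene had 81 reads. By limma at an adjusted p under 0.05, 1238 of the 1242 genes passed (99.7%), 777 higher with shFTO#5 (62.6%) and 461 lower (37.1%). In 1242 genes (100%) the shFTO#5 values did not overlap the control values. These shares restate how the table was made, because the authors' call on the same libraries chose the genes. Genes outside the table are not analysed here. The 4 genes that missed the limma threshold were the glycolytic enzymes PKM, ENO1 and GAPDH and the mitochondrial chaperonin HSPD1, named after their values were seen. GAPDH stood at 2359 and 2377 FPKM in the control libraries and 2447 and 2465 with shFTO#5 (limma adjusted p = 0.0918). In bulk RNA, fewer cells of a kind and less RNA per cell cannot be told apart.

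Changes were small for most genes. Among the 781 genes with the higher mean in shFTO#5 the median log2 change was 0.22, with the middle of the distribution (25th to 75th percentile) between 0.16 and 0.30. Among the 461 lower genes the median was -0.35, between -0.44 and -0.28. The median standard deviation between replicates was 0.03 on the same scale in each group. A ratio of FPKM means of at least 1.5 was reached by 53 higher genes (4.27%) and 65 lower genes (5.23%), and a ratio of at least 2 by 7 and 4 genes. With each library centred on the median of the listed genes, which lowered changes by 0.0887, the counts past 1.5-fold were 31 and 121 and the share of higher genes among those past the limma threshold moved from 62.8% to 53.7%. Directions of gene classes below are given with that centring and with quantile normalization wherever either changes them.

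**Figure D1:**
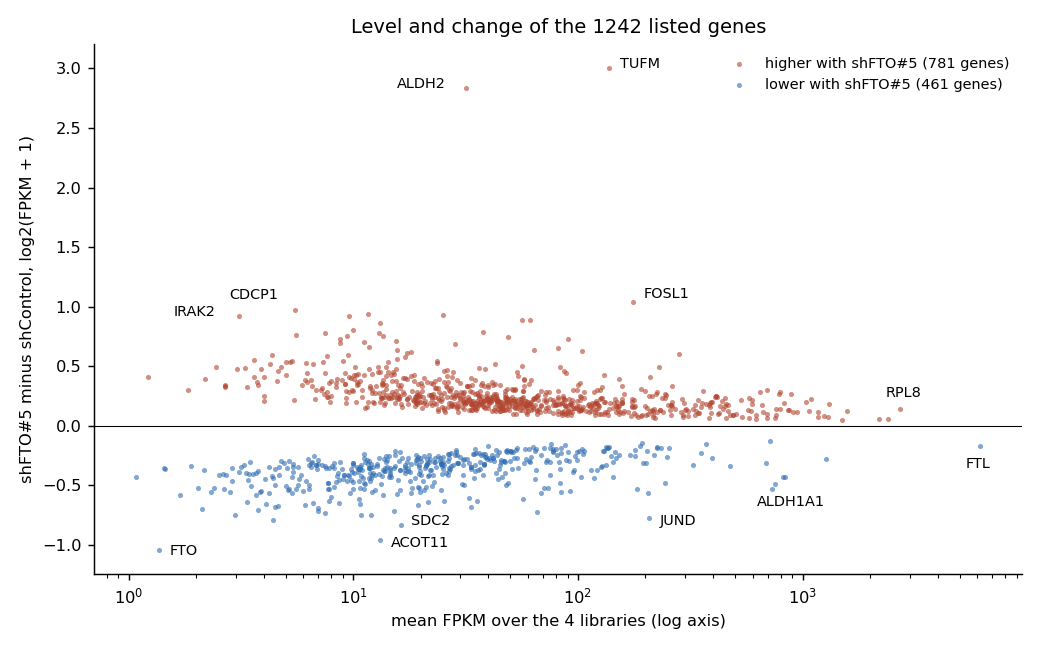
Log2 change (vertical axis, shFTO#5 minus shControl) against mean FPKM over the 4 libraries (horizontal log axis) for the 1242 genes, 781 higher in red and 461 lower in blue. TUFM and ALDH2 lie far above all other genes, and the spread of changes narrows towards the abundant genes on the right.

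Higher genes were the more abundant ones. Their median level was 45.0 FPKM, against 20.6 FPKM for lower genes. Of the 74 genes at up to 5 FPKM, 24 were higher (32.4%), and the share was 49.0% of 349 genes at 5 to 20 FPKM, 67.5% of 550 genes at 20 to 100 FPKM and 79.9% of 269 genes above 100 FPKM. The size of change fell along the same order, from a median log2 change of 0.41 to 0.16 for higher genes and from -0.43 to -0.25 for lower genes. How far the authors' call, which is made on size against spread, sets this order was not tested. The higher genes took 23.5% and 23.6% of the reads that FPKM was scaled by in the control libraries and 26.7% and 27.0% with shFTO#5. The lower genes took 8.53% and 8.73% in the control libraries and 6.94% and 6.97% with shFTO#5.

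**Figure D2:**
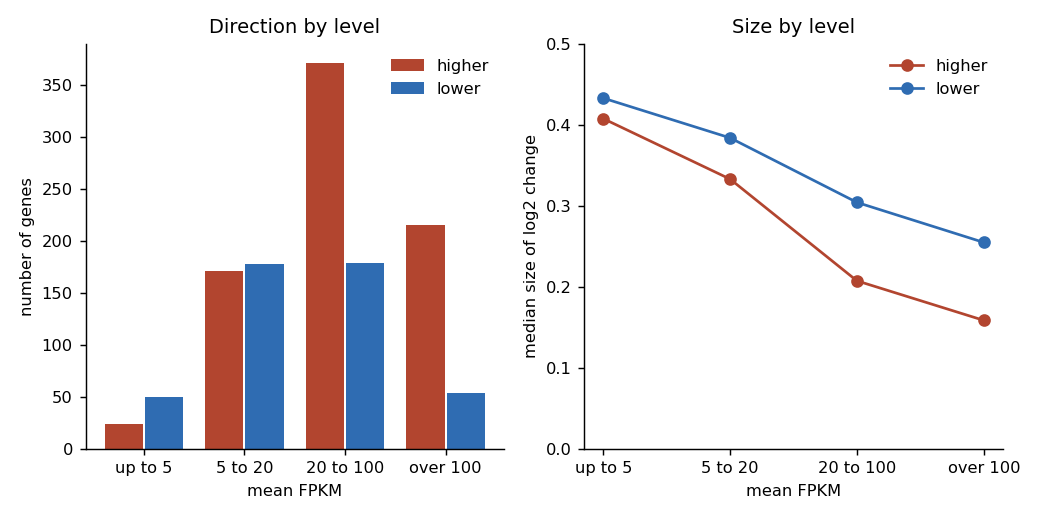
Left, number of genes higher (red) and lower (blue) with shFTO#5 in 4 classes of mean FPKM; right, the median size of the log2 change in each class, drawn without sign for lower genes. Lower genes outnumber higher genes up to 20 FPKM, and above 100 FPKM there are 215 higher and 54 lower genes.

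FTO itself (Ensembl ENSG00000140718; chr16:53701692-54158512, plus strand, hg38) was the most strongly lowered gene. Its level was 1.99 and 2.37 FPKM in the control libraries and 0.555 and 0.526 FPKM with shFTO#5. The remaining level was 24.8% of the control mean, a log2 change of -1.04 ± 0.07, which understates the fold because the level is near the pseudocount of 1. An exact permutation test gave p = 0.333, the smallest that 2 against 2 libraries allow. Of the other m6A proteins in the table, the reader YTHDF3 was at 28.4 and 26.5 FPKM in control and 31.0 and 30.0 FPKM with shFTO#5 (0.15 ± 0.05). HNRNPA2B1, an RNA-binding protein described as a reader (0.08 ± 0.03), and the initiation factor subunit EIF3A (0.09 ± 0.03) were also higher, but HNRNPA2B1 turned to -0.01 with centred libraries and both came out just below 0 with quantile normalization. Thus 3 of the 4 listed m6A genes were higher, 2 with centring and 1 with quantile normalization. With the symbol matches that were taken out after the values were seen, that list of 8 was 3 higher and 5 lower.

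The largest rises belonged to a pair of nuclear genes for mitochondrial proteins. TUFM (ENSG00000178952; chr16:28842411-28846408, minus strand) encodes the elongation factor Tu of mitochondrial translation. It was at 28.3 and 31.1 FPKM in the control libraries and at 242 and 248 FPKM with shFTO#5, 8.24-fold the control mean (standard error 0.04 on the log2 scale, limma adjusted p = 2.38e-25). ALDH2 (ENSG00000111275; chr12:111766887-111817529, plus strand) encodes the mitochondrial enzyme that oxidises acetaldehyde. It was at 6.76 and 7.32 FPKM in control and 55.1 and 57.8 FPKM with shFTO#5, 8.02-fold the control mean (2.84 ± 0.05, limma adjusted p = 3.46e-22). Both libraries of each group were close together for both genes, and no other gene rose as much as 3-fold. All listed genes were chosen by a call on these same libraries. The limma p-values of single genes, here and below, are therefore no independent evidence of a change. Relatives of these genes did not show changes of that size. The other listed genes of mitochondrial translation and import ran from -0.44 for MRPL34 to 0.54 for MRPL35, both proteins of the large mitochondrial ribosomal subunit. The enzymes of the aldehyde dehydrogenase and aldo-keto reductase families were mostly lower, as given with the metabolic genes.

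**Figure D3:**
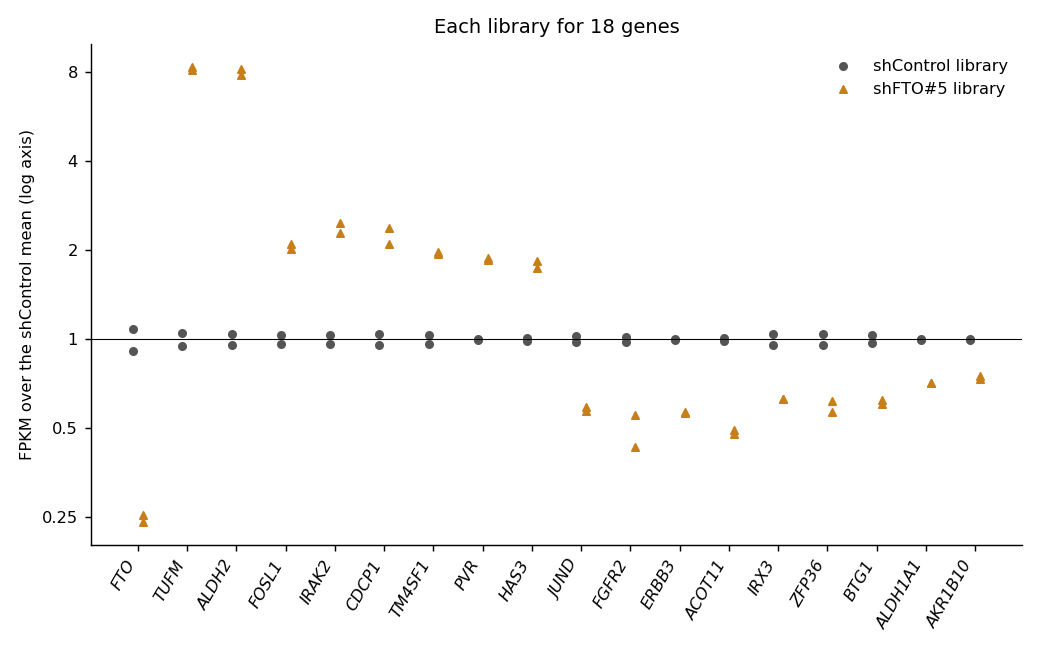
FPKM of each library divided by the shControl mean (log axis) for 18 genes, with grey circles for the 2 shControl libraries and orange triangles for the 2 shFTO#5 libraries. The triangles lie near 8 for TUFM and ALDH2 and near 0.25 for FTO, and in no gene do circles and triangles overlap.

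Among AP-1 transcription factors, which bind DNA as pairs of JUN and FOS family members, the listed members moved in opposite directions. FOSL1 (FRA-1) was at 110.2 and 119 FPKM in the control libraries and 232 and 241 FPKM with shFTO#5. It doubled in both libraries, with a log2 change of 1.04 ± 0.04 (limma adjusted p = 7.86e-17). JUND was at 256 and 269 FPKM in control and 151 and 155 FPKM with shFTO#5, 58.3% of the control mean (-0.78 ± 0.03, limma adjusted p = 4.96e-15). FOSL2 fell a little (-0.15 ± 0.04) and the small MAF protein MAFF rose (0.42 ± 0.06). The immediate early factor EGR1 fell from 11.3 and 12.2 to 7.32 and 7.89 FPKM (-0.57 ± 0.06), while the Kruppel-like factors KLF5 (0.36 ± 0.06), KLF10 (0.38 ± 0.05) and KLF6 (0.15 ± 0.04) rose.

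Ligands, receptors and feedback genes of growth factor signalling were mixed. The EGF receptor ligand TGFA rose from 13.5 and 14.5 to 22.0 and 22.0 FPKM (0.62 ± 0.05), and PDGFA fell (-0.41 ± 0.06). Of 9 receptor tyrosine kinases, 4 rose and 5 fell. ERBB3, a partner of other EGF receptor family kinases, was at 15.2 and 15.4 FPKM in control and 8.64 and 8.70 FPKM with shFTO#5 (-0.75 ± 0.06). FGFR2 was at 3.90 and 4.04 FPKM in control and 2.20 and 1.72 FPKM with shFTO#5 (-0.75 ± 0.07), and FGFR3 fell as well (-0.50 ± 0.05). The receptors that rose included EPHA2 (0.48 ± 0.04), AXL (0.29 ± 0.04) and the hepatocyte growth factor receptor MET, which went from 61.1 and 59.4 to 73.4 and 71.1 FPKM (0.26 ± 0.04). Of 12 genes of the MAP kinase cascade and its feedback, 9 rose with a list median of 0.33, beside 0.15 over all listed genes. IER3, an early response gene, led them (0.68 ± 0.05), followed by the ERK phosphatase DUSP5 (0.53 ± 0.07) and PHLDA2 (0.52 ± 0.06), whereas the JNK phosphatase DUSP8 fell (-0.54 ± 0.07).

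Of 8 cytokine and TNF family receptors, 7 rose. The death receptor TNFRSF10A was at 4.86 and 5.65 FPKM in control and 8.23 and 7.65 FPKM with shFTO#5 (0.52 ± 0.07), the oncostatin M receptor OSMR rose (0.47 ± 0.05), and so did IL6R (0.33 ± 0.06). TGFBR1, the type I TGF-beta receptor, fell (-0.32 ± 0.07). In a group of inflammatory and cell-death signalling genes that was drawn up after the values were seen, 9 of 10 rose with a median of 0.41. IRAK2, a kinase below the interleukin-1 and Toll-like receptors, went from 1.77 and 1.89 to 4.54 and 4.19 FPKM, 2.38-fold the control mean (0.92 ± 0.06). MLKL, the executor of necroptosis, went from 3.77 and 4.01 to 7.03 and 7.53 FPKM (0.76 ± 0.06). ICAM1, an adhesion molecule for leukocytes (0.44 ± 0.06), and the ubiquitin ligase BIRC3 (0.41 ± 0.06) also rose, and TRAF7 fell (-0.24 ± 0.05). All 5 listed apoptosis regulators rose, with a median of 0.26, but TNFRSF10A, TNFRSF10B and BIRC3 among them are already counted in the groups above.

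Cell surface and adhesion genes held many of the larger rises. Of 15 cadherins, claudins, tetraspanins and related surface proteins, 12 rose with a median of 0.39. The surface glycoprotein CDCP1 was at 3.23 and 3.54 FPKM in the control libraries and 7.12 and 8.05 FPKM with shFTO#5, 2.24-fold the control mean (0.97 ± 0.07). The tetraspanin-like protein TM4SF1 was at 16.3 and 17.5 FPKM in control and 33.3 and 32.8 FPKM with shFTO#5 (0.93 ± 0.05). The poliovirus receptor PVR (CD155), a ligand of natural killer cell receptors, was at 42.7 and 42.3 and then 78.7 and 80.1 FPKM (0.89 ± 0.04). In these genes the shFTO#5 libraries were close to or above double the control, and EMP1 (0.92 ± 0.07) and the hyaluronan receptor CD44 (0.46 ± 0.05) were higher too. CDH24 fell (-0.48 ± 0.06).

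All 5 listed integrins rose. ITGA3 was at 220.3 and 228 FPKM in control and 335 and 348 FPKM with shFTO#5 (0.60 ± 0.03), and ITGB3 was at 6.36 and 7.67 and then 12.9 and 13.0 FPKM (0.80 ± 0.07). Of 9 genes of the urokinase system, metalloproteases, serpins and related proteins, 7 rose. The urokinase PLAU (0.78 ± 0.06) and its receptor PLAUR (0.73 ± 0.07) rose by similar amounts, PLAU from 5.01 and 5.49 to 9.57 and 9.87 FPKM. HAS3, a hyaluronan synthase, went from 9.43 and 9.22 to 17.1 and 16.3 FPKM (0.78 ± 0.06). Of 6 proteoglycans, collagens and matrix glycoproteins, 4 fell (5 with quantile normalization). The heparan sulfate proteoglycan SDC2 was at 21.9 and 20.3 FPKM in control and 10.9 and 11.9 FPKM with shFTO#5 (-0.83 ± 0.06), and fibronectin FN1 fell (-0.43 ± 0.06), while COL7A1 rose (0.49 ± 0.06).

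Developmental transcription factors were mostly lower. Of 10 homeobox, SOX, PAX and related factors, 8 fell with a list median of -0.42. IRX3 was at 25.3 and 27.5 FPKM in control and 16.6 and 16.6 FPKM with shFTO#5 (-0.64 ± 0.05). The renal lineage factor PAX2 fell (-0.53 ± 0.06) while PAX8 went from 79.3 and 76.4 to 90.2 and 86.9 FPKM (0.18 ± 0.04), and SOX9 also rose (0.34 ± 0.06). Of 10 helix-loop-helix factors and their inhibitors, 7 fell. Musculin (MSC) was at 79.4 and 84.5 FPKM in control and 48.9 and 49.6 FPKM with shFTO#5 (-0.72 ± 0.04), and ID3 (-0.48 ± 0.03) and ID4 (-0.39 ± 0.03), which block DNA binding by helix-loop-helix partners, fell with it. EPAS1, the hypoxia-inducible factor HIF-2 alpha, rose from 6.35 and 6.35 to 8.34 and 7.73 FPKM (0.30 ± 0.06). Of 6 nuclear receptors and coregulators, 5 fell, led by NR0B1 (-0.62 ± 0.04) and NR2F2 (-0.54 ± 0.06), and PPARG rose (0.34 ± 0.04). Of the ZNF series, 4 factors fell. With the symbol matches that were taken out after the values were seen, that list was 5 lower and 1 higher.

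The next signalling groups were also drawn up after the values were seen, so their counts describe the chosen genes and show no direction of a pathway. All 11 BMP and SMAD pathway genes fell with a median of -0.41, among them SMAD9 (-0.55 ± 0.06), the inhibitory SMAD6 (-0.53 ± 0.05) and the BMP targets of the ID family. ID1, ID2, ID3 and ID4 are already counted with the helix-loop-helix factors, and TGFBR1 with the cytokine receptors. SMAD9 was at 4.83 and 4.81 FPKM in control and 2.88 and 3.09 FPKM with shFTO#5. All 6 genes of insulin-like growth factor binding and signalling fell, with IGFBP4 at 14.3 and 14.9 and then 10.2 and 9.09 FPKM (-0.56 ± 0.06). Of 6 Notch pathway genes, 4 fell, including the ligand DLL4 (-0.64 ± 0.06) and the receptor NOTCH3 (-0.40 ± 0.05), and the ligand JAG1 (0.20 ± 0.06) and the receptor NOTCH2 (0.16 ± 0.04) rose. Of 5 Wnt receptors and secreted regulators, 4 fell, among them SFRP4 (-0.73 ± 0.06) and the receptor FZD7 (-0.56 ± 0.06), and the ligand WNT7B rose (0.54 ± 0.05).

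A group of 6 mRNA decay and BTG genes was likewise drawn up after the values were seen, so its common direction, lower in all 6 with a median of -0.52, was fixed by that choice. ZFP36 (tristetraprolin), which binds AU-rich elements and brings transcripts to the deadenylation machinery, was at 8.62 and 7.96 FPKM in control and 4.70 and 5.13 FPKM with shFTO#5 (-0.65 ± 0.06). Its relative ZFP36L2 fell from 57.3 and 56.5 to 40.3 and 40.7 FPKM (-0.48 ± 0.04). The antiproliferative genes BTG1 (-0.67 ± 0.05) and BTG2 (-0.56 ± 0.08) fell as well. BTG2 was among the 3 genes with the largest spread between replicates, with 2.53 and 3.31 FPKM in the shFTO#5 libraries against 4.97 and 4.56 FPKM in control.

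Genes of oxidant defence and detoxification were lower. Of 17 targets of NRF2, the factor that answers oxidants through antioxidant response elements, 15 fell (14 with quantile normalization, with 1 at 0) and the list median was -0.28. OSGIN1 was at 80.9 and 85.9 FPKM in control and 58.8 and 56.9 FPKM with shFTO#5 (-0.52 ± 0.04). The ferritin heavy chain FTH1 was at 919 and 1005 and then 673 and 754 FPKM (-0.43 ± 0.04), and the light chain FTL, the most abundant listed gene, at 6540.2 and 6559 and then 5697 and 5931 FPKM (-0.17 ± 0.03; 0.00 with quantile normalization). The haem oxygenase HMOX1 (-0.27 ± 0.03), the cystine carrier SLC7A11 (-0.36 ± 0.06) and the glutathione synthesis enzyme GCLC (-0.28 ± 0.05) fell too. Glutathione reductase GSR (0.10 ± 0.03) and the haem transporter SLC48A1 (0.19 ± 0.04) were the exceptions that rose. The list overlaps the next one through the aldo-keto reductases. ABCC6, NR0B1, SLC7A11, SLC48A1 and CYP4F11 are also counted in other lists.

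Of 11 aldehyde dehydrogenases and aldo-keto reductases, 9 fell, and the 2 that rose were ALDH2 and AKR1B1, the latter by 0.07 ± 0.03 and below 0 with centred libraries. ALDH1A1, which makes retinoic acid from retinal, was at 877 and 881 FPKM in control and 624 and 625 FPKM with shFTO#5 (-0.49 ± 0.03). AKR1B10 was at 946 and 941 and then 708 and 694 FPKM (-0.43 ± 0.03). Both were lower by a similar share and close between replicates. The folate enzyme ALDH1L1 (-0.58 ± 0.06) and ALDH8A1 (-0.66 ± 0.06) fell further at much lower levels.

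Promoter sequences of 2 NRF2 targets are shown as examples of the motif matches described, as RefSeq gives the 250 bases before the start on GRCh38.p14, read 5′ to 3′ on the gene's strand. The antioxidant response element core, searched on both strands from 250 bases before to 50 after the start, was in promoters of 2 of 11 listed NRF2 targets with a sequence (CYP4F11 and EPHX1). The AP-1 motif TGANTCA, which can overlap that core, was in 2 of the 11 (CYP4F11 and OSGIN1). Counted by promoter, each motif was in 2 of the 15 promoters of these genes (13.3%). Over all 35116 promoters the shares were 3.18% and 7.71%, and over the promoters of lower genes 2.48% and 4.60%. CYP4F11, a cytochrome P450 (-0.38 ± 0.05), is drawn from chr19:15934868-15935117 (minus strand) with the core in capitals on the reverse strand, and OSGIN1 from chr16:83952990-83953239 (plus strand) with the AP-1 motif in capitals. A match describes letters only.
CYP4F11: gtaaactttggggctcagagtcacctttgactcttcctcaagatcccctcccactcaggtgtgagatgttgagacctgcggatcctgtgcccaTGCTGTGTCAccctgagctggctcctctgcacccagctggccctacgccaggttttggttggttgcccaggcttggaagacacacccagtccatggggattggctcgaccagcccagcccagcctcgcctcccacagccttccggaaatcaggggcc
OSGIN1: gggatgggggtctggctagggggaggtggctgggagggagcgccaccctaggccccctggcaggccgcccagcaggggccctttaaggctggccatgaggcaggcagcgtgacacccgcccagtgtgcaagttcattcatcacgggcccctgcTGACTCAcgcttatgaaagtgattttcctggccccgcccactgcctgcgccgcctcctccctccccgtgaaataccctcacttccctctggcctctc

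Other metabolic genes were split. All 6 amino acid enzymes and ATF4 targets fell, among them the stress protein NUPR1 from 211 and 221 to 149 and 150.0 FPKM (-0.53 ± 0.03) and the proline synthesis enzyme PYCR1 (-0.35 ± 0.05). PHGDH, the first enzyme of serine synthesis, fell (-0.29 ± 0.03), while RRM2, the small subunit of ribonucleotide reductase, rose from 28.2 and 27.1 to 48.9 and 47.8 FPKM (0.78 ± 0.04). Of 14 lipid and sterol genes, 9 rose (8 with centred libraries), a share near the 62.9% of all listed genes. The acyl-CoA thioesterase ACOT11 was at 17.5 and 17.9 FPKM in control and 8.48 and 8.73 FPKM with shFTO#5, the second largest fall after FTO (-0.96 ± 0.06). The desaturase SCD fell (-0.42 ± 0.04), and the phosphatidate phosphatase LPIN1 rose from 5.02 and 5.19 to 7.29 and 7.30 FPKM (0.44 ± 0.06).

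Most listed transporters and lysosomal genes were lower. Of 28 solute carriers, 16 fell (17 with quantile normalization). The organic anion transporters moved apart, SLCO4C1 from 14.2 and 13.3 to 7.87 and 7.72 FPKM (-0.75 ± 0.06) and SLCO4A1 from 38.5 and 40.3 to 71.3 and 75.9 FPKM (0.88 ± 0.04). The renal sodium-hydrogen exchanger SLC9A3 fell (-0.64 ± 0.05), as did the amino acid carrier SLC7A5 (-0.31 ± 0.03). Of the ABC family, 4 transporters fell, including the drug efflux pump ABCB1 (-0.33 ± 0.04), and the 2 members without a membrane domain, taken out of the list after the values were seen, were higher. The endocytic receptor LRP2 of proximal tubule cells went from 4.98 and 4.27 to 2.86 and 2.66 FPKM (-0.58 ± 0.07). Of 5 autophagy and lysosome genes, 4 fell, led by GABARAPL1 (-0.71 ± 0.06) and the kinase ULK1 (-0.49 ± 0.06). The lysosomal protease CTSD, which fell, is counted here, in the next group and with the urokinase and metalloprotease genes. Of 6 lysosomal enzymes and membrane proteins, a group drawn up after the values were seen, 5 fell, among them GPNMB from 114 and 122 to 90.8 and 84.3 FPKM (-0.43 ± 0.04) and the acid ceramidase ASAH1 (-0.39 ± 0.04), and the protease CTSL1 rose (0.24 ± 0.04).

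Genes of ribosome production were higher with shFTO#5 by small amounts. All 30 nucleolar and ribosome biogenesis factors rose, with changes of 0.12 to 0.41 and a median of 0.24, and all 30 stayed above 0 with centred libraries and with quantile normalization. NAT10, which acetylates cytidine in ribosomal RNA, was at 23.7 and 23.5 FPKM in control and 31.9 and 31.4 FPKM with shFTO#5 (0.41 ± 0.05). NOLC1 (0.33 ± 0.04), NOP16 (0.33 ± 0.05) and the helicase DDX10 (0.38 ± 0.06) followed. All 52 cytosolic ribosomal proteins and paralogs were higher, 47 with centred libraries and 46 with quantile normalization, with a median of 0.19. RPL38 was at 176 and 181 FPKM in control and 237 and 239 FPKM with shFTO#5 (0.41 ± 0.03), and RPL8, the most abundant of them, at 2553 and 2623 and then 2773 and 2921 FPKM (0.14 ± 0.03; 0.05 with centred libraries and 0.00 with quantile normalization). Ribosomal protein genes have many processed pseudogenes that can share their reads. Together the 52 genes took 3.85% and 3.88% of reads in control and 4.30% and 4.39% with shFTO#5.

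The promoters of 4 nucleolar genes are shown because the E-box CACGTG, the site letters of MYC and related factors, was in 15 of the 30 promoters of this list (50%), which cover 14 of its 26 genes with a sequence. The share was 12.5% over the promoters of higher genes, 9.03% over those of lower genes and 7.26% over all 35116 promoters. In other lists it was in 3 of 5 promoters of lysosomal enzymes, most of which fell, in 3 of 12 promoters of hypoxia-inducible factor targets and in 2 of 59 promoters of ribosomal proteins. The motif reads the same on both strands and contains ACGTG, which was in 27.7% of promoters of higher genes, 20% of lower and 21.4% of all. The CCAAT box was in 36.5% of promoters of higher genes, 35.0% of lower and 34.6% of all, and the TATA box TATAAA in 6.71%, 5.31% and 11.5%. The median GC content of the promoters was 65.3% for higher genes, 67.7% for lower genes and 58.7% for all. Of the 1242 genes, 995 matched a RefSeq promoter by gene ID. The 4 shown are the nucleolar genes with the largest changes among those with the motif in the 250 bases before the start (GRCh38.p14, gene's strand, motif in capitals), NAT10 from chr11:34105379-34105628 (plus), DDX54 from chr12:113185479-113185728 (minus), UTP14A from chrX:129905914-129906163 (plus) and DDX21 from chr10:68956397-68956646 (plus). DDX54 and DDX21 are RNA helicases of the nucleolus, with changes of 0.30 ± 0.04 and 0.23 ± 0.04, and UTP14A, a small subunit processome protein, changed by 0.26 ± 0.06.
NAT10: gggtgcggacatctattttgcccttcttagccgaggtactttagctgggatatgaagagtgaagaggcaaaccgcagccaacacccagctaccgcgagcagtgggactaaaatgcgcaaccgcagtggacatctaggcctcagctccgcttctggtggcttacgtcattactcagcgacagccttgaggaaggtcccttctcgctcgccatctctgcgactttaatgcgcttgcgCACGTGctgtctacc
DDX54: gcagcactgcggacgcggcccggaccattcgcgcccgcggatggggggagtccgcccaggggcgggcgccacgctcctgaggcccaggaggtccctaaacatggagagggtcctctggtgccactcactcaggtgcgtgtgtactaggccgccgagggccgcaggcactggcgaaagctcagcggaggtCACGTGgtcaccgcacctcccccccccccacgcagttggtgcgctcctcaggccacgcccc
UTP14A: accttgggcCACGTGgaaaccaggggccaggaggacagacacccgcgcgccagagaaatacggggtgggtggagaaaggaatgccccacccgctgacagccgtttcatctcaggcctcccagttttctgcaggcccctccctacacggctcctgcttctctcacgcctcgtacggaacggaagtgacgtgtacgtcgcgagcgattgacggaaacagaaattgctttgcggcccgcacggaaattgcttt
DDX21: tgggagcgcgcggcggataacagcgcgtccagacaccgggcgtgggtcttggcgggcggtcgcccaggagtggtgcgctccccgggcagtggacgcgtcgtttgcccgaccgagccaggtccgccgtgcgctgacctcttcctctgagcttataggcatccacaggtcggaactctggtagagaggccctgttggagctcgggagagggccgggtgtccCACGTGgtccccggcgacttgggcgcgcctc

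Translation, RNA processing and protein folding followed the same direction. All 15 translation initiation and elongation factors were higher, 14 with centred libraries and 13 with quantile normalization, led by EIF3D from 112 and 114 to 141 and 144 FPKM (0.33 ± 0.03). All 6 aminoacyl-tRNA synthetases and all 12 splicing factors rose, led by IARS2 (0.38 ± 0.04) and the Sm protein SNRPD3 (0.50 ± 0.04). Of 11 heterogeneous nuclear ribonucleoproteins, 10 were higher (9 with centring, 8 with quantile normalization), with a median of 0.10, and PTBP3 fell (-0.29 ± 0.06). All 8 subunits of the CCT chaperonin, which folds actin and tubulin, rose, CCT2 from 173 and 169 to 213 and 211 FPKM (0.31 ± 0.03). Of 21 heat shock proteins and co-chaperones, 18 were higher (16 and 15 under the same settings), with HSPA8 at 0.30 ± 0.03 and HSP90AB1 at 0.27 ± 0.03. The small heat shock protein CRYAB (-0.33 ± 0.03) and DNAJC22 (-0.63 ± 0.05) fell. All 10 proteasome genes were higher, 10 with centring and 9 with quantile normalization, led by PSMD2 (0.29 ± 0.03), and all 13 nuclear import, export and pore genes, 13 and 11 under these settings.

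**Figure D4:**
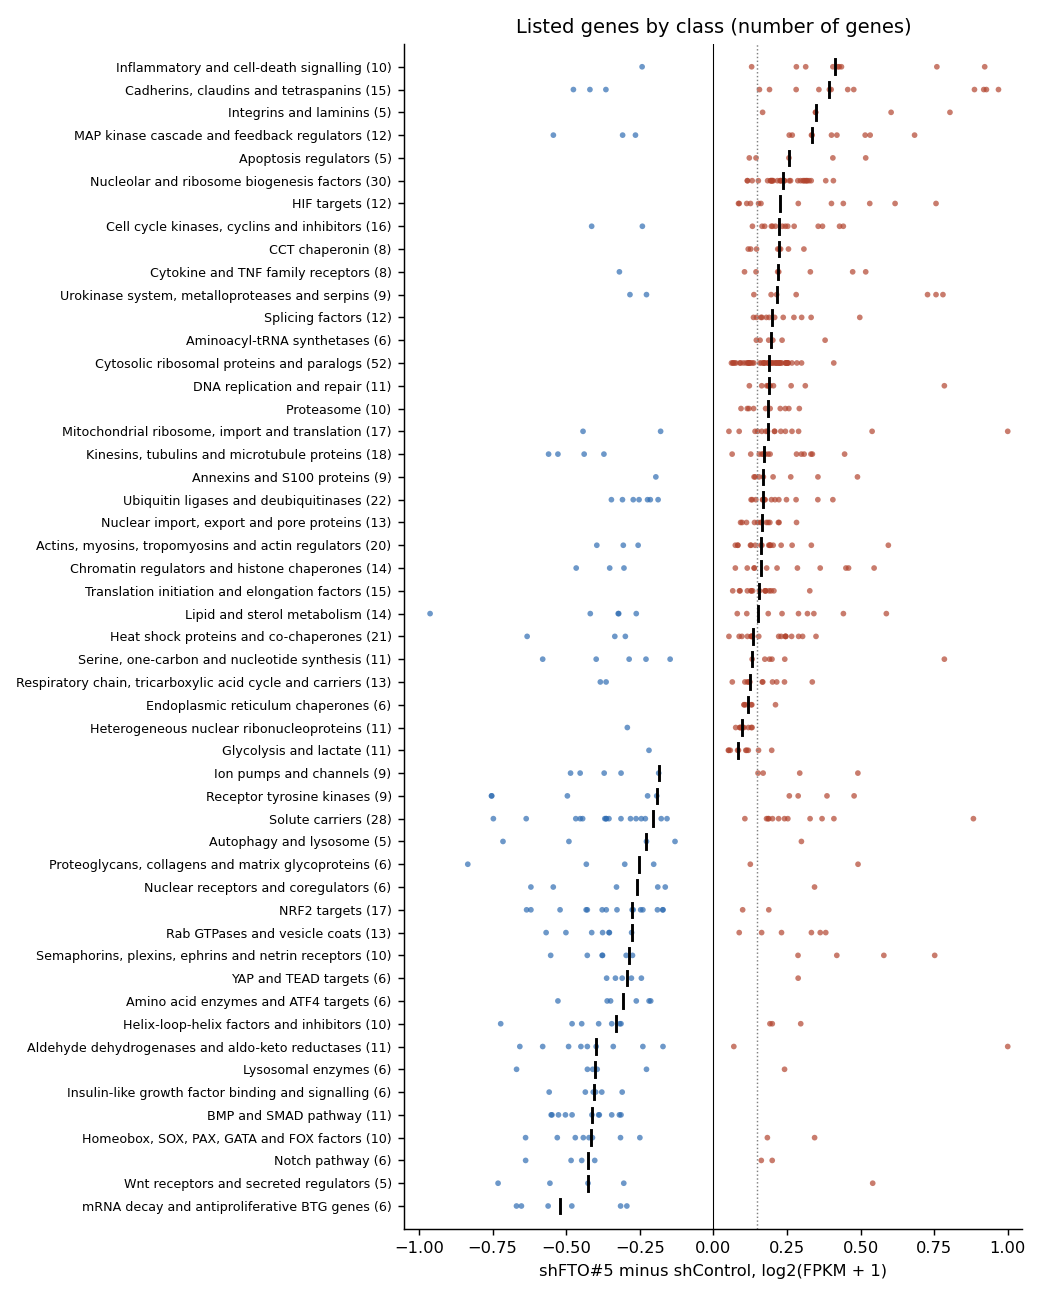
Log2 change (shFTO#5 minus shControl) of each gene (points, red higher, blue lower) in 51 gene classes with at least 5 members, with the class median as a black bar, 0 as a solid line and the median of all listed genes (0.15) as a dotted line. The number of genes stands in brackets, genes can be in more than 1 class, and the points of TUFM and ALDH2, which lie beyond the axis, are drawn at its right edge.

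All 12 genes in a chosen list of hypoxia-inducible factor targets were higher, with a median of 0.23. With centring 10 were higher and with quantile normalization 11. The list does not hold every target of these factors, so its count gives no direction for targets placed in other lists. Carbonic anhydrase CA9, a marker of ccRCC, was at 14.4 and 14.2 FPKM in control and 19.4 and 18.9 FPKM with shFTO#5 (0.40 ± 0.05). ANGPTL4, an inhibitor of lipoprotein lipase, was at 11.3 and 11.6 and then 16.2 and 17.9 FPKM (0.53 ± 0.06). TGFA and CCND1 are in this list as well as in others. Of 11 glycolysis genes, 10 had the higher mean with shFTO#5, but the median was 0.09 and 5 stayed above 0 with centring and 6 with quantile normalization. PFKL was the 1 lower gene before such scaling, from 95.2 and 99.7 to 83.0 and 84.2 FPKM (-0.22 ± 0.04), and HK1 had the largest rise (0.20 ± 0.04). Of 13 genes of the respiratory chain, tricarboxylic acid cycle and mitochondrial carriers, 11 were higher (10 and 9 under the same settings). The carriers among them are also counted with the solute carriers. IDH1, a cytosolic isocitrate dehydrogenase kept in this list, fell (-0.38 ± 0.05). Of 17 genes of mitochondrial translation and import, 15 were higher (13 under each setting).

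Cell cycle genes were mostly higher. Of 16 kinases, cyclins and inhibitors, 14 rose with a median of 0.22. Cyclin D1 (CCND1) was at 73.8 and 76.8 FPKM in control and 102 and 104 FPKM with shFTO#5 (0.44 ± 0.04), while cyclin D2 (CCND2) fell to 72.9% of its control mean (-0.41 ± 0.06). The mitotic kinase PLK1 (0.37 ± 0.04) and the inhibitor CDKN1C (0.43 ± 0.07) also rose. All 11 DNA replication and repair genes rose, among them the helicase subunits MCM7 (0.26 ± 0.03) and MCM6 (0.20 ± 0.05). The maintenance methyltransferase DNMT1 rose from 45.1 and 45.2 to 62.9 and 61.2 FPKM (0.45 ± 0.04) and the architectural protein HMGA2 from 3.92 and 4.36 to 6.43 and 6.56 FPKM (0.55 ± 0.06). HDAC6 fell (-0.47 ± 0.06). Of 18 kinesin, tubulin and microtubule genes, 14 were higher (13 with centring), and MAP2 fell (-0.56 ± 0.06). Of 20 actin, myosin and actin regulator genes, 17 were higher (14 with centring), with FLNC at 0.33 ± 0.03. The 4 keratin, plectin and lamin genes rose, KRT18 from 64.7 and 61.8 to 96.8 and 103 FPKM (0.65 ± 0.04).

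Smaller classes were mixed. Of 10 semaphorins, plexins, ephrins and neuropilins, 4 rose and 6 fell (5 with quantile normalization, where SEMA5A came to 0). The rises were led by the neuropilin NRP2, a semaphorin and VEGF receptor, from 6.50 and 7.02 to 11.7 and 12.4 FPKM (0.75 ± 0.06). SEMA4B rose (0.58 ± 0.06), and the ephrin ligand EFNA2 fell (-0.55 ± 0.07). Of 9 annexins and S100 proteins, 8 rose (7 with quantile normalization), led by the calcium-binding protein S100A2 from 190.0 and 193 to 263 and 276 FPKM (0.49 ± 0.03). Of 14 chromatin genes, 11 were higher (10 under each setting), and of 22 ubiquitin ligases and deubiquitinases 15 were, a share near the 62.9% of all listed genes. Of 13 Rab GTPase and vesicle coat genes, 7 were lower (8 under each setting), led by RAB40B (-0.57 ± 0.06). Of 6 YAP and TEAD targets, 5 fell, among them IGFBP3 from 214 and 234 to 181 and 179 FPKM (-0.31 ± 0.04), and AXL rose. Of 9 ion pumps and channels, 5 fell, among them the sodium pump subunit ATP1B1 from 129 and 129.5 to 99.7 and 99.97 FPKM (-0.37 ± 0.03), and the potassium channel KCNK3 rose (0.49 ± 0.06). Of 11 serine, one-carbon and nucleotide genes, 6 were higher. All 6 chaperones of the endoplasmic reticulum were higher (5 with quantile normalization), with a median of 0.12.

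By absolute FPKM the largest gains were in RPL8, TUFM, RPL7, GNB2L1, EEF1A1, RPS18, HSPA8 and HSP90AB1, and the largest losses in FTL, C1QL1, ALDH1A1, FTH1, RN7SL1, AKR1B10, SLC7A5 and CRYAB. C1QL1, a secreted C1q-like protein, was at 819.6 and 909 FPKM in control and 581 and 612 FPKM with shFTO#5 (-0.53 ± 0.04). RN7SL1, the RNA of the signal recognition particle, was at 1412 and 1378 and then 1181 and 1114 FPKM (-0.28 ± 0.03) and has many near-identical copies, so its value is uncertain. Further genes among the 15 largest rises were SQRDL, an oxidoreductase of sulfide, from 9.55 and 8.57 to 16.8 and 17.7 FPKM (0.86 ± 0.06), and the long noncoding RNA CCAT1 from 7.90 and 7.39 to 15.3 and 15.9 FPKM (0.94 ± 0.06). Further genes among the 15 largest falls were the ciliary protein CYS1 from 6.05 and 5.57 to 3.11 and 2.76 FPKM (-0.79 ± 0.07), the elongation factor TCEA2 (-0.71 ± 0.07), the exchange factor RGL1 (-0.70 ± 0.06), METTL7A (-0.72 ± 0.06) and the serine protease HPN (-0.70 ± 0.07). The lists left out 614 genes, 345 higher and 269 lower, with a median of 0.13.

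Of 8 renal lineage markers, PAX8, PAX2 and LRP2 were in the table, and of 6 ccRCC markers CA9, ANGPTL4 and EPAS1. None of the 13 markers of leukocytes, endothelium and fibroblasts was in it. A table of called genes cannot show the level of a marker that was not called, so it gives only a partial check of the cell line.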

How the data were processed

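RNA-seq of UMRC2 cells with shControl or shFTO#5 (2 libraries each, grouped by sample title) was analysed from the authors' deposited table of FPKM values, named as such in the file headers. Trim Galore 0.4.2, STAR, RSEM and hg38 are named in the submitters' processing notes, with no role or order. For the annotation release, the strand setting and the differential test, the sources used here name nothing (not given in the sources used here). Without a stated strand setting, reads of overlapping or antisense genes cannot be told apart. The table holds genes the authors had already called for this comparison. Their fold changes and p-values were not used.

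FPKM times gene length was, in each of the 4 libraries, a whole multiple of 1 common step for all 1242 genes (tolerance 1e-05). The step is what 1 counted read is worth. Its inverse gave the totals that FPKM was scaled by, 14548533 to 18184675 reads. The least covered listed gene had 81 reads. Limma 3.58.1 in R 4.3.3 was fitted with an intensity trend to log2(FPKM + 1), with a pseudocount of 1. A filter (1 FPKM or more in 2 or more libraries) removed no gene. The fit used Benjamini-Hochberg adjustment over all of them and a threshold of 0.05. Fold changes on this scale understate the change of low genes. Since the fit saw called genes alone, the spread it estimates is that of genes selected on these same libraries. Data were simulated for this comparison on 1242 genes with the same spread between libraries for every gene, 0.05 on the log2 scale. In them limma called 50 of 50 genes at each log2 change of 0.3, 0.5, 1 and 2. It also called 23 of 1042 genes with no change. Recovery of nonzero changes smaller than 0.3, such as the median of 0.22 among the higher genes, was not tested. Recovery of genes with a larger spread, such as BTG2, and of genes already chosen by a call on the same libraries was not tested either.

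The members, gene lists and tests were chosen with earlier results of these data known, and 7 of the 65 lists were drawn up after the values were seen. Lists were filled by symbol, and 26 symbol matches of other function were taken out after the values were seen. Lists are described by counts and medians, with no set test. Genes named are FTO, the 15 largest rises and falls, the 8 largest gains and losses in FPKM, up to 4 members of each list of at least 3 with the largest change plus the most extreme of the minority direction, the 6 largest changes among genes not protein coding and the 3 with the largest replicate spread. Others are named for their list, position or motif, and a few that the rule names are not reported here. Gene positions come from GENCODE 29 (1230 of 1242 IDs matched), and promoters from RefSeq on GRCh38.p14. Alternatives were a pseudocount of 0.1 FPKM, no filter, a mean of at least 10 FPKM, median centring, quantile normalization, no trend, a replicate block, each library left out and the symbol matches kept.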

Additional observations from a re-analysis of the deposited data

How the results depend on the processing

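With any 1 library left out, 1 group held a single library. The median log2 change over the listed genes was then 0.143 to 0.150, against 0.147 with all 4 libraries. The genes had been called on all 4, so this is no independent check of their changes. Past the limma threshold the main fit had 777 higher and 461 lower genes. The replicate block gave 781 higher and 461 lower genes. Replicate numbers did not pair the samples (correlation of the differences between replicates 0.0884 across genes), and the block also called PKM, ENO1, GAPDH and HSPD1, the 4 genes that missed the threshold without it, and changed no other call. Centred libraries gave 534 higher and 461 lower genes, quantile normalization 550 and 455, no trend 752 and 461, and a mean of at least 10 FPKM 700 and 342 of 1046 genes tested. A pseudocount of 0.1 FPKM and no filter each gave 777 and 461.

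With centred libraries the genes past 1.5-fold were 31 higher and 121 lower, and 5 glycolysis genes were higher. With quantile normalization 6 glycolysis genes and 1 m6A gene were higher, and with all symbol matches kept 3 of 8 m6A genes were. The log2 change of HNRNPA2B1 turned to -0.0128 with centring and to -0.00735 with quantile normalization, and the log2 change of EIF3A to -0.00218 with quantile normalization. The cause of these moves was not tested. Of 269 named genes, 16 more with centring and 17 more with quantile normalization kept their direction or reached 0 without passing the threshold.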

Other observations

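By position, chosen after the values were seen, the listed genes within 1 Mb of FTO were IRX3 and IRX5, of 7 protein-coding genes that GENCODE 29 places there. IRX3 starts or ends 124.8 kb from FTO and IRX5 772.4 kb from it, and both homeobox genes fell, by 0.64 ± 0.05 and 0.42 ± 0.06 on the log2 scale. IRX5 was at 9.73 and 9.89 FPKM in the control libraries and 6.93 and 7.21 FPKM with shFTO#5. Its groups did not overlap, as in 100% of the listed genes. Within 1 Mb of TUFM, MVP (0.17 ± 0.03) and XPO6 (0.10 ± 0.04) rose and NUPR1 (-0.53 ± 0.03), QPRT (-0.37 ± 0.03) and MAZ (-0.54 ± 0.05) fell, of 43 protein-coding genes there. Within 1 Mb of ALDH2, SH2B3 (0.29 ± 0.06) and RPL6 (0.18 ± 0.03) rose, of 18.

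The share of higher genes differed by chromosome around 62.9% for the whole table. The highest shares were 86.8% on chromosome 15 (33 of 38 genes), 79.5% on chromosome 10 (35 of 44) and 75% on chromosome 3 (54 of 72). The lowest were 34.7% on chromosome 19 (26 of 75), 44.4% on chromosome 21 (4 of 9), 44.6% on chromosome 9 (33 of 74) and 45.5% on chromosome 13 (5 of 11). Of the 414 shortest genes 68.6% were higher, and of the 414 longest 54.6%. By the gene type in the table, 774 of 1220 protein-coding genes, 5 of 13 processed transcripts, 2 of 4 lincRNAs, 0 of 3 pseudogenes and 0 of 2 antisense genes were higher. Chromosomes, lengths and types were not tested.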
